A study of Mus musculus with 24 samples.

Results

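Hippocampal RNA was compared between 4 *Tsc1-Cre+* mice taken on day 4 and 4 *Tsc1-Cre-* control mice, which together were 8 of the 24 mice sequenced. The day 4 mice carried *Tsc1* alleles that Cre can remove (Tsc1f/f) and the Tg(Camk2a-CreERT2) transgene, and the controls carried the same *Tsc1* alleles without the transgene. All 8 were adult mice of mixed sex, and all had received tamoxifen, which activates CreERT2. Day 4 fell on the day after the last tamoxifen injection, whereas the control mice were taken on day 8, so the deletion of *Tsc1*, the presence of the transgene and the time since tamoxifen differed together between the groups and cannot be told apart. The remaining 16 mice all carried Cre and formed 4 groups of 4, taken on day 6, on day 8, on day 13 untreated, and on day 13 after rapamycin. The *Camk2a* promoter restricts Cre mainly to excitatory forebrain neurons, so glia, interneurons and blood vessels in the same tissue kept *Tsc1*, and a level in whole hippocampus averages over deleted and intact cells. In such tissue, fewer cells of a type and less RNA per cell cannot be told apart.

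*Tsc1* encodes a scaffold of the TSC complex, which switches off the small GTPase RHEB and thereby holds back mTORC1, the kinase complex that drives protein, lipid and nucleotide synthesis and suppresses autophagy and lysosome production. Persistent mTORC1 activity is also known to raise the transcription factor ATF4, which drives amino acid synthesis and uptake, and to feed back on its own inputs. In hippocampal neurons and glia, the glucocorticoid receptor is a ligand-activated transcription factor that responds to circulating corticosterone, and interferon signalling sets the resting level of many defence genes in glia and vessels.

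Total counts ranged from 50460565 to 61083014 per mouse. A level below is given as CPM, counts per 1000000 after scaling with TMM factors, and 25308 genes had enough counts to be tested. Both groups expressed the markers of hippocampal neurons, with the 15 markers of dentate granule cells summing to between 1458 and 1616 CPM in controls and between 1333 and 1742 CPM on day 4. No series of animal numbers was shared: the controls came from 2 series with 2 mice each, and the day 4 mice from 2 further series, 3 mice in one and mouse D in the other, so cohort and group cannot be told apart. The groups also differed in sex balance. *Xist*, which is expressed from the inactive X chromosome of females, was at 3.19 CPM in control mouse A and between 653 and 1094 CPM in the other 3 controls, and on day 4 it was between 1.75 and 3.16 CPM in mice A to C and at 969.6 CPM in mouse D. Finally, the day 4 libraries held relatively more RNA of GC-rich genes, as described below, and every result on genes was recomputed with an offset for GC content and exonic length (the GC offset).

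*Tsc1* itself (ENSMUSG00000026812.16, on the plus strand of chromosome 2, 28641228 to 28691167, GRCm38) stood at 112, 105, 109 and 105 CPM in control mice A to D and at 79.5, 80.8, 83.5 and 77.3 CPM in day 4 mice A to D. Every day 4 mouse was below every control mouse, and the mean was 108 ± 3.28 CPM in controls against 80.3 ± 2.57 CPM on day 4 (SD, n = 4 each). The log2 fold change was -0.42 (SE 0.0362, adjusted p = 2.84e-04 by edgeR), and the exact permutation test of CPM gave p = 0.0286, the smallest that 4 mice against 4 can give. The labels and the level of *Tsc1* were therefore not in conflict in any of the 8 mice.

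The 2 largest rises were those of *Esr1* and *Arsi*. *Esr1*, the estrogen receptor gene, stood at 4.05, 3.40, 2.75 and 2.66 CPM in controls and at 29.1, 32.8, 29.9 and 28.0 CPM on day 4, a log2 fold change of 3.22 (SE 0.117, adjusted p = 4.13e-08). The CreERT2 protein contains a domain of the human estrogen receptor, and the share of its reads counted at *Esr1* was not tested. *Arsi*, the gene next to *Camk2a* on chromosome 18, stood between 1.41 and 2.05 CPM in controls and between 7.34 and 10.7 CPM on day 4 (log2 fold change 2.45, SE 0.167, adjusted p = 4.17e-05). Of the other 13 tested genes named as estrogen-responsive none was called, and *Ccnd1* (cyclin D1) and *Igfbp4* fell by 0.36 and 0.15 on the log2 scale. Among the 12 tested genes of the transgene and the neighbourhood of *Camk2a*, 7 were higher at an adjusted p under 0.05, among them the proline transporter gene *Slc6a7* at 75.8 ± 5.39 against 57.1 ± 0.714 CPM and *Camk2a* itself at 2435 ± 187 against 1893 ± 256 CPM. Of the 7, *Camk2a*, *Ndst1* and *Hmgxb3* did not pass the test with the GC offset (adjusted p = 0.0705, 0.109 and 0.344).

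**Figure D1:**
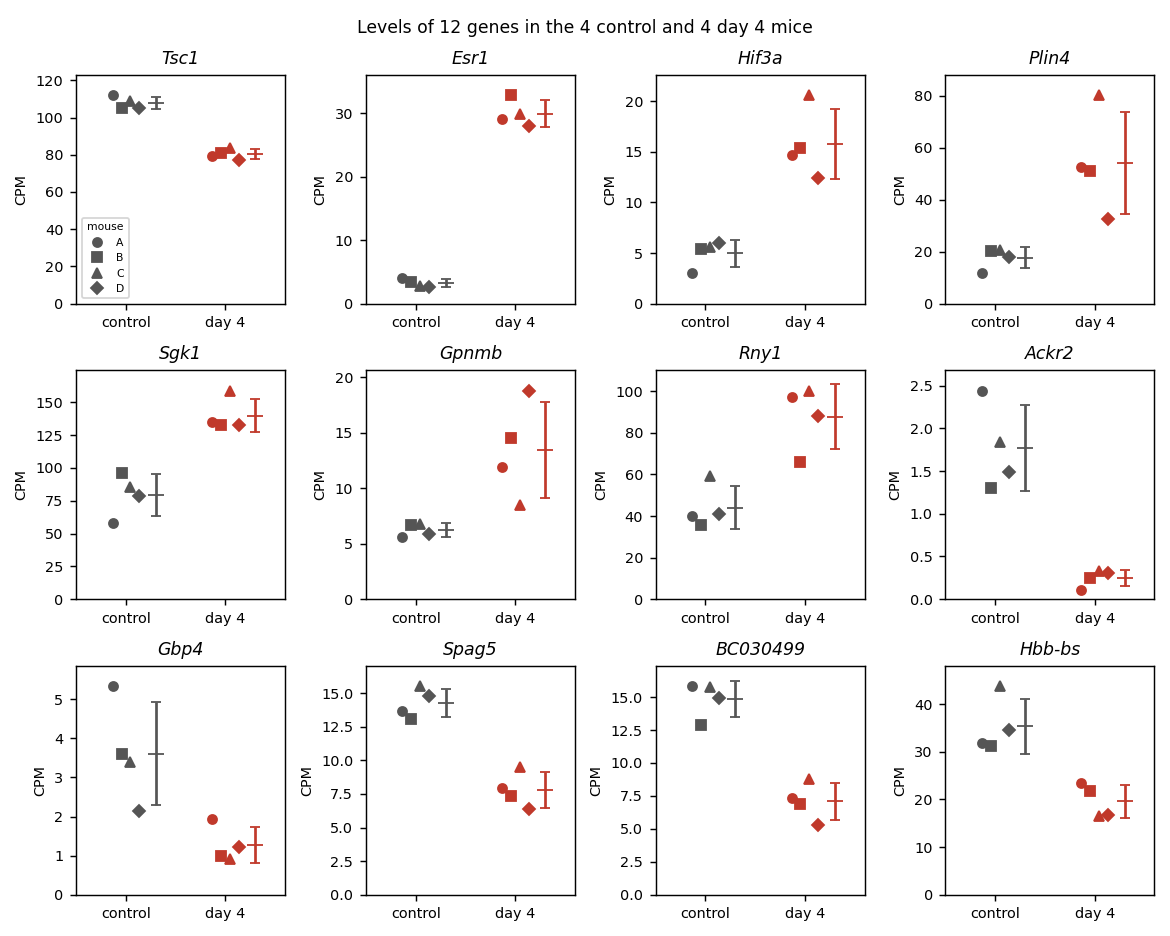
CPM of 12 genes in each of the 8 mice (linear axes from 0, one panel per gene, marker shape for mouse A to D), with the mean and SD of each group (n = 4) beside the points. *Tsc1*, *Ackr2*, *Gbp4*, *Spag5*, *BC030499* and *Hbb-bs* were lower and the other 6 genes higher in all 4 day 4 mice than in all 4 controls.

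Genes counted as differentially expressed (DE) if their adjusted p was below 0.05 and their log2 fold change exceeded 0.5 in either direction. On day 4, 172 genes were DE, 0.680% of those tested, with 86 higher (0.340%) and 86 lower (0.340%). Of the 172, 163 did not overlap between the groups. Among all genes tested, 1535 (6.07%) were higher in every day 4 mouse than in every control and 1443 (5.70%) were lower in every day 4 mouse. The median log2 fold change over all genes was -0.00468. Small shifts were more frequent than large ones: at an adjusted p under 0.05 without a fold-change minimum, 660 genes were higher (2.61%) and 394 lower (1.56%). With the GC offset 100 genes were DE (0.395%), of which 42 were among the 86 rises and 48 among the 86 falls above. When *Xist* was added as a covariate, 107 genes were DE, of which 71 were among the 172. Of the DE genes named below, *4833404L02Rik*, *Castor2*, *Iigp1*, *Il33*, *Hbb-bt*, *Fosl2*, *Syn1*, *Grik5*, *Mfsd2a*, *Lum* and *Rny3* were not DE with the GC offset. With *Xist* as a covariate the calls of *Sult1a1*, *4833404L02Rik*, *Castor2*, *Stc2*, *Mndal*, *H2-K1*, *Il33*, *Hbb-bt*, *Gm47469*, *Arc*, *Fosl2*, *Opalin*, *Mfsd2a*, *Lum*, *Dnah6*, *Mir6236* and *Rny3* were lost. Of the genes named below as past the adjusted p but under the minimum, *Tsc22d3*, *Klf9*, *Nr1d1*, *Rorb*, *Sesn2*, *Ddit4*, *Aldh18a1*, *Gpt2*, *Vars*, *Aars*, *Tfe3*, *Mcoln1*, *Ifit2*, *Ciita*, *Gpr34*, *Bcas1*, *Aqp4*, *S100b*, *Mlc1* and *Fgfr3* did not pass with the GC offset. Within mice of low *Xist* (control A against day 4 A to C) and within mice of high *Xist* (controls B to D against day 4 D) the direction was the same by construction for the 163 genes without overlap, and it was also the same for the remaining 9.

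Genes were also read in 60 lists covering pathways, treatments and cell types, of which 20 held at least 1 DE gene and 40 held none. In a plot of 58 of these lists, 53 had a median log2 fold change within 0.2 of 0. The exceptions were glucocorticoid-responsive genes and choroid plexus markers on the higher side and interferon-stimulated genes, MHC genes and red blood cell genes on the lower side.

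**Figure D2:**
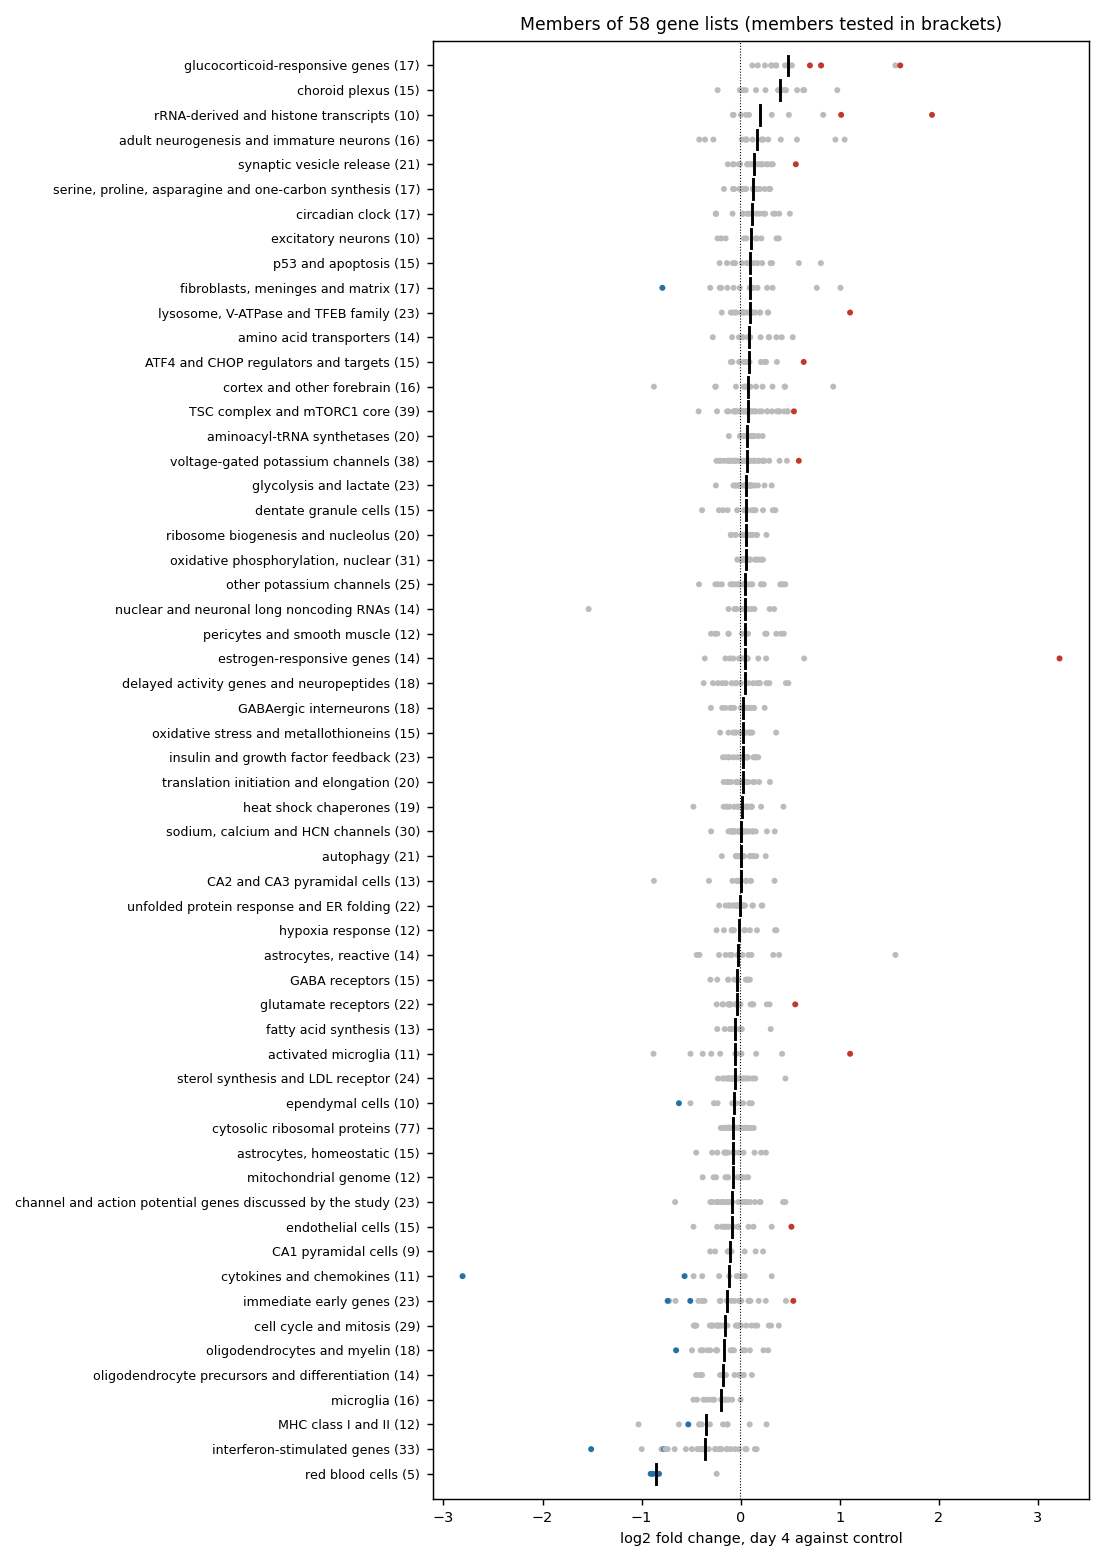
Log2 fold change on day 4 against control of every tested member of 58 gene lists (number of members in brackets), with DE genes in red (higher) and blue (lower), other members in grey and the list's median as a black bar. The dotted line marks the median of all genes tested, and the medians of glucocorticoid-responsive genes (0.48) and red blood cell genes (-0.85) lie at the 2 ends.

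The listed glucocorticoid-responsive genes were higher on day 4. This list, like the others, was written with earlier results of these data known, so its counts are a description and no independent evidence. All 17 tested members had a positive log2 fold change, with a median of 0.48, against 48.8% positive over all genes. Of the 17, 3 were DE (*Plin4*, *Sgk1* and *Sult1a1*), 11 were higher at an adjusted p under 0.05 without the fold-change minimum and none was lower. In 10 of the 17, every day 4 mouse was above every control, against 6.07% of all genes tested. The median was 0.42 with the GC offset. Direction was the same in mice of low and of high *Xist* for 15 of the 17, and for 14060 of the 25308 genes tested. For the 10 without overlap this was so by construction, and only day 4 mouse D had high *Xist*.

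*Sgk1* encodes the serum- and glucocorticoid-regulated kinase, which acts on ion channels and transporters (ENSMUSG00000019970.15, plus strand of chromosome 10, 21882184 to 21999903). Its level was 58.1, 95.7, 85.5 and 78.9 CPM in control mice A to D and 135, 133, 159 and 133 CPM in day 4 mice A to D. All day 4 mice were above all controls, mouse C was the highest, and the log2 fold change was 0.81 (SE 0.117, adjusted p = 0.00357). *Plin4*, which encodes a coat protein of lipid droplets (ENSMUSG00000002831.14, minus strand of chromosome 17, 56100591 to 56109803), stood at 11.9, 20.3, 20.6 and 17.9 CPM in controls and at 52.6, 51.1, 80.2 and 32.5 CPM on day 4. The groups were again separate, although the day 4 mice varied by more than the controls (54.1 ± 19.7 against 17.7 ± 4.02 CPM), with a log2 fold change of 1.61 (SE 0.231, adjusted p = 0.00343). *Plin4* lies opposite *Hdgfl2*, and without a stated strand setting of the counting, reads of overlapping genes cannot be told apart. *Sult1a1*, a sulfotransferase of phenols and hormones, stood at 5.42, 6.61, 7.22 and 6.58 CPM in controls and at 8.32, 12.2, 13.1 and 8.34 CPM on day 4. Its log2 fold change was 0.70 (SE 0.152, adjusted p = 0.025), and the call was lost in 5 of the 8 fits that left out 1 mouse, without control A, B or D or day 4 B or C.

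The remaining 14 members, named after their values were seen, were not DE, 8 because their log2 fold change was under the minimum and 6 because they did not pass the adjusted p. *Per1*, a clock gene with a direct glucocorticoid response, stood at 63.6 ± 3.85 CPM on day 4 against 45.1 ± 2.34 CPM in controls (log2 fold change 0.50, adjusted p = 6.76e-04). The transcription factor gene *Zbtb16* stood at 164 ± 14.1 against 118 ± 8.58 CPM, *Klf15* at 27.4 ± 3.73 against 19.7 ± 1.06 CPM, and *Fkbp5*, a co-chaperone that lowers the receptor's affinity for hormone, at 68.3 ± 5.18 against 50.1 ± 3.12 CPM. *Tsc22d3*, *Errfi1* and *Klf9* had smaller log2 fold changes of 0.31, 0.25 and 0.17, each past the adjusted p. The metallothionein gene *Mt1* was higher (log2 fold change 0.36, adjusted p = 0.0229) with overlap between the groups, whereas *Mt2* (0.12, adjusted p = 0.642), *Pdk4* (0.36, adjusted p = 0.111) and *Nfkbia* (0.31, adjusted p = 0.233) did not pass the test. Nor did *Arrdc2* (0.52, adjusted p = 0.144), *Cdkn1a* (0.81, adjusted p = 0.0809) and *Lcn2* (1.56, adjusted p = 0.464), whose values were larger and whose groups overlapped. In the circadian clock list 13 genes had a positive and 4 a negative log2 fold change, with a median of 0.11. The mean log2 level of the list per mouse did not overlap, at -0.0226 to 0.0231 in controls and 0.0624 to 0.205 on day 4. Besides *Per1*, the clock genes past the adjusted p were mixed in direction. *Nr1d1* was higher (log2 fold change 0.39), *Arntl* (-0.25) and *Rorb* (-0.25) were lower, none of the 17 tested clock genes was DE, and the times of day at which the mice were taken were not given in the sources used here.

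The glucocorticoid receptor binds DNA as a dimer on an inverted pair of hexamers related to TGTTCT, separated by 3 bases. In RefSeq promoter windows (GRCm38.p6, the 250 bases before a transcription start, searched on both strands), the single hexamer was present in 5284 of 32851 windows (16.1%) and for 18.2% of genes with a window, and it was present for 3 of 16 members of the list with a window and for 6 of the 46 higher DE genes with a window. The exact inverted pair was present in 3 of the 32851 windows, of which 1 was a window of *Sgk1*. This window lies inside the gene's span, before the start of one of its transcripts at position 21993890 of chromosome 10. It is shown with that of *Sult1a1*, the other of the 3 DE members whose window held the hexamer, since the hexamers are the base of these counts. Capitals mark TGTTCT or its reverse complement.
Sgk1, chr10:21993640-21993889, plus strand: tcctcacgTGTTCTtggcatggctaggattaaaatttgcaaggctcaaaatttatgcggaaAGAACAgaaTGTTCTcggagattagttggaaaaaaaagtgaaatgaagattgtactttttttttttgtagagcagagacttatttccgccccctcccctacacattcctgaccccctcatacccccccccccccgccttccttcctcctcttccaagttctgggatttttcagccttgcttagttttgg
Sult1a1, chr7:126676433-126676668, minus strand: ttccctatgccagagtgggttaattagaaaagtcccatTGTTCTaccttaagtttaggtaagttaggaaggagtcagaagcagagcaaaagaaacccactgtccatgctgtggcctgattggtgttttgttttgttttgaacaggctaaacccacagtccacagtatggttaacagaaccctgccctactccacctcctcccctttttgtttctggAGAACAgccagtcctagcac
The *Sgk1* window held 3 hexamers, 2 of which formed the inverted pair, and the *Sult1a1* window held 2 that lay apart. The windows of *Plin4* and *Hif3a* held none, which says only that these letters were not in these windows. A match is a description of the sequence and not evidence of binding.

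Outside the lists, the largest rise after *Esr1* and *Arsi* among the genes that met the conditions for naming was that of *Hif3a*, a member of the hypoxia-inducible factor family that can restrain the other members (ENSMUSG00000004328.15, minus strand of chromosome 7, 17031507 to 17062427). It stood at 3.02, 5.36, 5.59 and 5.95 CPM in controls and at 14.7, 15.3, 20.6 and 12.4 CPM on day 4, with a log2 fold change of 1.66 (SE 0.193, adjusted p = 0.00113) that was 1.62 with the GC offset. The lowest day 4 mouse was above the highest control. The antisense gene *4833404L02Rik*, which lies within *Hif3a*, was also higher (log2 fold change 1.53), and the reads of the pair cannot be told apart. None of the 12 tested genes of the hypoxia response passed the test, and their median log2 fold change was -0.02.

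Further rises among the genes that met these conditions were in genes of varied function. *Fam83d*, a mitotic spindle gene, stood at 4.67 ± 1.08 against 1.89 ± 0.594 CPM (log2 fold change 1.31, adjusted p = 0.0072), although none of the 29 tested genes of cell cycle and mitosis was DE and their median was -0.16. *Fam163b* stood at 26.9, 28.9, 30.6 and 26.2 CPM in controls and at 57.5, 58.8, 52.6 and 39.1 CPM on day 4 (log2 fold change 0.89, SE 0.106, adjusted p = 0.00123). *Prr5*, which encodes a subunit of mTORC2, the second mTOR complex, stood at 2.36, 2.17, 2.71 and 2.29 CPM in controls and at 5.47, 3.93, 4.07 and 4.31 CPM on day 4 (log2 fold change 0.90, SE 0.133, adjusted p = 0.00419). In both genes all day 4 mice were above all controls, and the log2 fold changes with the GC offset were 0.81 and 0.80.

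Within the mTORC1 pathway, changes on day 4 were small. Of 39 tested genes of the TSC complex and mTORC1 core, 1 was DE, 10 were higher and 1 lower at an adjusted p under 0.05 without a fold-change minimum, and the median log2 fold change was 0.07. The lower gene was *Tsc1*. In 12 of the 39 every day 4 mouse was above every control, against 6.07% of all genes tested. In 3 every day 4 mouse was below every control, against 5.70%. The mean log2 level of the list per mouse did not overlap, at -0.0223 to 0.0247 in controls and 0.0964 to 0.115 on day 4. *Castor2*, which encodes a protein of the arginine-sensing branch that inhibits mTORC1 through GATOR2, stood at 106, 99.1, 115 and 81.8 CPM in controls and at 161, 153, 139.5 and 129.8 CPM on day 4 (log2 fold change 0.54, SE 0.0903, adjusted p = 0.00746). The call was lost without control D or day 4 A and with the GC offset, where the log2 fold change was 0.49 with an adjusted p of 0.0118. Lower thresholds held for the following genes, named after their values were seen. *Flcn*, encoding folliculin, stood at 60.7 ± 1.93 against 46.2 ± 1.85 CPM (log2 fold change 0.40, adjusted p = 6.76e-04), and those of its partners *Fnip2* and *Fnip1* were 0.27 and 0.19. The sestrin genes *Sesn1* and *Sesn2*, leucine-sensing and stress-induced inhibitors, had log2 fold changes of 0.32 and 0.37, and *Ddit4*, another stress-induced inhibitor, one of 0.48. *Eif4ebp2*, which encodes a repressor of cap-dependent translation, had a log2 fold change of 0.44. The Rag GTPase genes *Rragd* and *Rraga*, whose products recruit mTORC1 to the lysosome, had values of 0.21 and 0.27. *Mtor* (0.06), *Rptor* (0.10), *Rheb* (-0.12) and *Tsc2* (0.06) did not pass the test.

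Downstream programs of mTORC1 showed few DE genes. Of the 15 tested regulators and targets of ATF4 and CHOP, *Stc2*, a secreted glycoprotein gene induced by stress of the endoplasmic reticulum, was DE. It stood at 2.36, 3.48, 2.49 and 2.64 CPM in controls and at 4.46, 4.72, 4.28 and 3.63 CPM on day 4 (log2 fold change 0.64, SE 0.14, adjusted p = 0.026), without overlap, and the call was lost in 6 of the 8 fits that left out 1 mouse (all but those without control B or day 4 D). *Atf4* (log2 fold change 0.09), *Ddit3* (0.08), *Chac1* (0.26) and *Asns* (0.15) did not pass the test, and the list's median was 0.08. Among 14 tested amino acid transporter genes none was DE and 3 were higher without the fold-change minimum, led by *Slc7a5* at 45.3 ± 3.12 against 34.0 ± 2.62 CPM (log2 fold change 0.42, adjusted p = 0.00482). Among 17 genes of serine, proline, asparagine and one-carbon synthesis *Aldh18a1* and *Gpt2*, and among 20 aminoacyl-tRNA synthetase genes *Vars* and *Aars*, passed without the minimum, all upwards, with list medians of 0.12 and 0.07. With the GC offset *Vars* and *Aars* had log2 fold changes of 0.05 and 0.06 (adjusted p = 0.635 and 0.497) in place of 0.18 and 0.14.

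Of 23 tested genes of the lysosome and the TFEB family, 1 was DE. *Gpnmb*, a transmembrane glycoprotein gene that is raised in cells with lysosomal stress, stood at 5.59, 6.66, 6.82 and 5.84 CPM in controls and at 11.9, 14.5, 8.48 and 18.7 CPM on day 4. The lowest day 4 mouse was above the highest control, with a log2 fold change of 1.11 (SE 0.188, adjusted p = 0.00828). The call was lost in the fits of all 24 mice, by edgeR and by DESeq2. *Gpnmb* also stands in the list of activated microglia, whose other 10 tested members did not pass the test. *Tfe3*, encoding a transcription factor of lysosomal genes, and *Mcoln1*, encoding a lysosomal calcium channel, each had a log2 fold change of 0.28, past the adjusted p but under the minimum. The mRNAs of the cytosolic ribosomal protein genes are translated under mTORC1 control. None of the 77 tested was DE, and 7 were lower at an adjusted p under 0.05, of which *Rpl10* had the value of -0.20 and *Rps27* of -0.18. In 28 of the 77 every day 4 mouse was below every control, against 5.70% of all genes tested. The median of the 77 was -0.07, and -0.06 with the GC offset. Sterol synthesis (24 tested, median -0.06), fatty acid synthesis (13, -0.05), the unfolded protein response (22, -0.01), heat shock chaperones (19, 0.02), autophagy (21, 0.00) and glycolysis (23, 0.06) held no DE gene.

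A few genes of interferon and immune signalling were DE on day 4, most of them lower. Of 33 tested interferon-stimulated genes 29 had a negative log2 fold change, the median was -0.36, 2 were DE (*Gbp4* and *Iigp1*), and 4 passed at an adjusted p under 0.05 without the minimum, all downwards. In 8 of the 33 every day 4 mouse was below every control, against 5.70% of all genes tested. The mean log2 level of the list per mouse, relative to the mean of the controls, overlapped between the groups (-0.0994 to 0.0671 in controls and -0.462 to -0.0446 on day 4). *Gbp4*, a guanylate-binding protein gene (minus strand of chromosome 5, 105115767 to 105139586), stood at 5.33, 3.59, 3.39 and 2.13 CPM in controls and at 1.95, 0.992, 0.918 and 1.22 CPM on day 4. The highest day 4 mouse lay just under the lowest control, the log2 fold change was -1.51 (SE 0.28, adjusted p = 0.0122), and the call was lost without day 4 mouse B (adjusted p = 0.0578). *Gbp4* overlaps *Gbp8* and *Gbp9*, so reads may be split between them. *Iigp1*, an immunity-related GTPase gene, stood at 1.96 ± 0.305 against 3.34 ± 0.59 CPM (log2 fold change -0.77, adjusted p = 0.0192), and the call was lost without day 4 B or C and with the GC offset (adjusted p = 0.0512). *Ifit2* and *Irf1* fell by 0.38 and 0.37 on the log2 scale, whereas *Rsad2* (-0.76) and *Oasl2* (-0.37) did not pass the test.

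Further immune genes, some chosen after their values were seen, were lower in the same comparison. *Tmem173*, which encodes the DNA-sensing adaptor STING, stood at 1.70 ± 0.0527 against 2.89 ± 0.364 CPM (log2 fold change -0.77, adjusted p = 0.00745). The neighbouring IFI200 family genes *Mndal* and *Ifi203*, which overlap each other, had log2 fold changes of -1.07 and -0.67. The MHC class I gene *H2-K1* stood at 15.1, 21.5, 15.1 and 16.3 CPM in controls and at 12.6, 10.0, 10.6 and 13.9 CPM on day 4 (log2 fold change -0.53, adjusted p = 0.0386), a call that was lost in 5 of the 8 fits without 1 mouse (control B or D, day 4 A, B or C). *H2-D1* fell by 0.39 on the log2 scale, and *Ciita*, the activator of MHC class II genes, had a log2 fold change of 0.26 past the adjusted p. Over the 12 tested MHC genes the median was -0.35, and the mean log2 level per mouse overlapped between the groups (-0.219 to 0.440 in controls and -0.431 to 0.0384 on day 4).

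The largest fall among the genes that met the conditions for naming was that of *Ackr2*, an atypical receptor that takes up and degrades inflammatory chemokines (ENSMUSG00000044534.8, plus strand of chromosome 9, 121898355 to 121911074). It stood at 2.44, 1.30, 1.84 and 1.49 CPM in controls and at 0.108, 0.252, 0.328 and 0.306 CPM on day 4, with a log2 fold change of -2.81 (SE 0.301, adjusted p = 7.38e-04). Every day 4 mouse was far below every control, and the value was -2.83 with the GC offset and -2.96 with *Xist* as a covariate. DESeq2 gave a value of -2.82 on the same 8 mice but no adjusted p, and on all 24 mice it gave none either. The day 4 levels were near the floor. Of the 18 cytokine and chemokine genes listed 11 had enough counts to be tested, and *Il33*, an alarmin gene, was the other DE member. *Il33* stood at 41.6, 64.6, 54.8 and 67.5 CPM in controls and at 41.2, 34.2, 33.9 and 45.0 CPM on day 4 (log2 fold change -0.57, adjusted p = 0.0349), with overlap between the groups, and its call was lost in 6 of the 8 fits without 1 mouse (all but those without control A or day 4 D), with the GC offset and with *Xist* as a covariate (log2 fold change -0.32, adjusted p = 0.126). *Serpinb1a*, an inhibitor of neutrophil proteases, stood at 7.58, 9.21, 7.91 and 9.73 CPM in controls and at 4.60, 3.71, 4.13 and 4.94 CPM on day 4, without overlap (log2 fold change -0.98, SE 0.113, adjusted p = 0.00111). Its call was lost in edgeR on all 24 mice (adjusted p = 0.0547).

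All 16 tested markers of microglia had a negative log2 fold change, with a median of -0.20, none was DE and 3 were lower at an adjusted p under 0.05 without the minimum. Their mean log2 level per mouse overlapped between the groups, at -0.116 to 0.0861 in controls and -0.349 to -0.0781 on day 4. Their summed level was 389 to 456 CPM in controls and 335 to 402 CPM on day 4, and no marker was at 0. *Cx3cr1*, the fractalkine receptor gene, fell by 0.27 on the log2 scale, *Ctss* (cathepsin S) by 0.35 and *Gpr34* by 0.44, whereas *P2ry12* (-0.31, adjusted p = 0.124) did not pass the test. The part of the microglial share in the falls of immune genes was not tested.

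Red blood cell genes were also lower. The hemoglobin gene *Hbb-bs* (chromosome 7, 103826534 to 103828096) stood at 31.8, 31.2, 43.7 and 34.6 CPM in controls and at 23.4, 21.8, 16.6 and 16.7 CPM on day 4 (log2 fold change -0.85, SE 0.127, adjusted p = 0.0044). *Hba-a1*, *Hba-a2* and *Hbb-bt* were DE with log2 fold changes of -0.82, -0.89 and -0.91, with the call of *Hbb-bt* lost in 7 of the 8 fits without 1 mouse (all but that without control A), with the GC offset (adjusted p = 0.0548) and with *Xist* as a covariate (adjusted p = 0.162). *Alas2* (-0.24) did not pass the test, and none of the 4 genes was DE in edgeR on all 24 mice. All 5 genes of the list were lower in every day 4 mouse than in every control, against 5.70% of all genes tested. The similar copies within the alpha and beta groups share reads. The amount of blood left in the tissue was not given in the sources used here.

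A pair of neighbouring genes on chromosome 11 fell together. *Spag5*, which encodes a protein of the mitotic spindle (plus strand, 78301529 to 78322457), stood at 13.7, 13.1, 15.5 and 14.8 CPM in controls and at 7.98, 7.37, 9.51 and 6.37 CPM on day 4 (log2 fold change -0.87, SE 0.109, adjusted p = 0.00155). *BC030499*, which ends upstream of it on the same strand (78290841 to 78296805), stood at 15.8, 12.9, 15.8 and 14.9 CPM in controls and at 7.36, 6.91, 8.77 and 5.32 CPM on day 4 (log2 fold change -1.06, SE 0.127, adjusted p = 0.00121). Neither gene overlapped between the groups, and day 4 mouse D was the lowest and mouse C the highest of the day 4 mice for both. The remaining falls named by the rule were the noncoding genes *Gm47469* (-1.40) and *Gm17753* (-0.97), the pseudogene *Nlrp5-ps* (-1.25), *C030005K15Rik* (-0.89) and the collagen gene *Col22a1* (-0.81), each without overlap. In edgeR on all 24 mice the calls of *Gm17753*, *Nlrp5-ps* and *C030005K15Rik* were lost (adjusted p = 0.350, 0.224 and 0.293), whereas *Gm47469* and *Col22a1* kept theirs.

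Activity-dependent genes were mixed on day 4, before the seizures of this model begin. Of 23 tested immediate early genes 1 was DE higher and 2 were DE lower, and the median was -0.14. *Npas4*, a transcription factor gene induced by calcium influx, stood at 11.2, 6.17, 7.87 and 6.84 CPM in controls and at 4.31, 6.08, 4.97 and 3.89 CPM on day 4 (log2 fold change -0.74, SE 0.182, adjusted p = 0.0423). Day 4 mouse B lay just under control B, and the call was lost in 7 of the 8 fits without 1 mouse (all but that without control B). *Arc*, which acts at synapses, stood at 97.9, 125, 130.3 and 93.8 CPM in controls and at 84.4, 80.8, 85.3 and 63.5 CPM on day 4 (log2 fold change -0.51, adjusted p = 0.0259), with the call lost without control B or C or day 4 B or D. *Nr4a1* fell by 0.39 on the log2 scale, and *Fos* (-0.72, adjusted p = 0.143) and *Egr1* (-0.43, adjusted p = 0.121) did not pass the test. In the other direction, the AP-1 gene *Fosl2* was DE at 72.8 ± 4.14 against 50.3 ± 8.92 CPM (log2 fold change 0.53, adjusted p = 0.0123), a call that was lost without control A or D or day 4 B and with the GC offset (log2 fold change 0.48). *Jun* was higher under the minimum (0.46, adjusted p = 0.00407).

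Genes of synapses and ion channels contributed few DE genes, and their calls depended on the GC offset. *Syn1*, which encodes synapsin I of synaptic vesicles, stood at 148, 137, 158 and 124 CPM in controls and at 189, 215, 207 and 222 CPM on day 4 (log2 fold change 0.56, SE 0.0698, adjusted p = 0.00155), and it overlaps *Timp1* and *Araf* on the other strand. *Grik5*, a kainate receptor subunit, stood at 134, 123, 129.9 and 116 CPM in controls and at 184, 196, 175 and 182 CPM on day 4 (log2 fold change 0.55, SE 0.0492, adjusted p = 3.13e-04). All day 4 mice were above all controls in both genes. With the GC offset the log2 fold changes were 0.47 and 0.41, below the minimum, with adjusted p of 0.00427 and 0.00527, and *Syn1* also fell below the minimum without control D. Among 21 tested genes of vesicle release 1 was DE and 6 were higher without the minimum. In 7 of the 21 every day 4 mouse was above every control, against 6.07% of all genes tested. The mean log2 level of this list per mouse did not overlap, at -0.0605 to 0.0508 in controls and 0.109 to 0.184 on day 4. Among 22 glutamate receptor genes *Grik5* was the DE gene, and among 15 GABA receptor genes, 30 sodium, calcium and HCN channel genes and 25 other potassium channel genes none was. Of the 23 tested channel and action potential genes that the study discusses, which were picked with these samples and are no independent evidence, none was DE on day 4, with 2 higher and 3 lower without the minimum.

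Markers of the other cell types of the tissue held few DE genes. Excitatory neurons had no DE marker among 10 tested, and *Neurod2*, a transcription factor of these neurons, was higher under the minimum at 104 ± 7.23 against 79.3 ± 2.32 CPM. No marker of CA1 (9 tested), of CA2 and CA3 (13) or of interneurons (18) passed the test, and of 15 dentate granule cell markers 2 were lower without the minimum. The myelin list of 18 oligodendrocyte markers had a median of -0.17 and 1 DE gene. *Opalin*, a myelin gene, stood at 18.5, 29.6, 23.5 and 29.7 CPM in controls and at 16.9, 13.4, 15.2 and 19.0 CPM on day 4 (log2 fold change -0.65, adjusted p = 0.0259). Control A, the control with low *Xist*, lay below day 4 mouse D, and the call was lost in 5 of the 8 fits without 1 mouse (control B or D, day 4 A, B or C) and with *Xist* as a covariate (adjusted p = 0.101). Of 14 precursor markers none was DE and *Pdgfra* (-0.18) and *Bcas1* (-0.45) were among the 3 that were lower without the minimum. Homeostatic astrocytes had no DE marker among 15, and without the minimum *Aqp4*, *S100b* and *Mlc1* were lower and *Fgfr3* was higher, named after their values were seen. In 5 of the 15 every day 4 mouse was below every control, against 5.70% of all genes tested. The mean log2 level of the list per mouse did not overlap, at -0.0317 to 0.0299 in controls and -0.106 to -0.0597 on day 4. Reactive astrocytes had no DE marker among 14. Of 15 endothelial markers 11 had a negative log2 fold change, with a median of -0.08, and the DE member, *Mfsd2a*, a lipid transporter of brain endothelium, was higher (log2 fold change 0.51). Its call was lost without control A or day 4 B or C and with the GC offset, where the value was 0.48. Of 17 markers of fibroblasts, meninges and matrix 10 had a positive log2 fold change, whereas the DE member *Lum* was lower (-0.79), as was the ciliary dynein gene *Dnah6* (-0.62), both with overlap and each call lost in at least 5 of the 8 fits without 1 mouse. Markers of the choroid plexus, which lies beside the hippocampus in the ventricle, had a median of 0.40 but no DE gene among 15. *Ttr* stood at 18.8, 1538, 40.9 and 29.5 CPM in controls and at 619, 633, 8.95 and 955 CPM on day 4, so its level differed between mice within both groups.

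Several small and rRNA-derived transcripts were DE higher on day 4, whereas their classes held few DE genes. *Rny1*, a Y RNA bound by the Ro protein (minus strand of chromosome 6, 47788069 to 47788180), stood at 40.2, 35.8, 59.1 and 41.1 CPM in controls and at 97.0, 65.9, 100.2 and 88.2 CPM on day 4 (log2 fold change 0.99, SE 0.149, adjusted p = 0.0044). *Gm26917*, an rRNA-derived transcript, stood at 3806, 4932, 6875 and 4324 CPM in controls and at 7521, 10407, 11957 and 10416 CPM on day 4 (log2 fold change 1.02, SE 0.169, adjusted p = 0.00737), which was 0.84 with the GC offset. *Mir6236*, annotated as a microRNA gene and listed here with the rRNA-derived transcripts, stood at 9.68, 6.76, 7.69 and 4.23 CPM in controls and at 54.6, 16.5, 15.6 and 21.8 CPM on day 4 (log2 fold change 1.93, SE 0.371, adjusted p = 0.0145). Mouse A was the highest by far, and the call was lost without control D (adjusted p = 0.0537). *Bc1*, a neuronal noncoding RNA, and *Rny3*, chosen after their values were seen, had log2 fold changes of 0.61 and 0.67. Of 294 tested snoRNA genes, *Gm23442* (0.93, within *Prrc2a*) was 1 of 5 that were DE higher, and 1 was DE lower (2.04% in all, beside 0.680% over all genes), with a median of 0.01. Of 127 genes in the class of *Rny1*, miscellaneous small RNAs, 2 were DE (1.57%), both higher, and the median was -0.02. None of the 219 snRNA, 46 rRNA and 18 scaRNA genes tested was DE. Of 1254 lincRNA genes 20 were DE (1.59%), 4 higher and 16 lower, and differences between classes were not tested.

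The GC content of a gene was related to its fold change on day 4. For each mouse, the slope of log2 CPM relative to the mean of the 8 mice on GC content was computed over protein-coding genes, per 10 percentage points of GC. The slopes were -0.068, -0.041, -0.018 and -0.060 in control mice A to D and 0.027, 0.054, 0.068 and 0.036 in day 4 mice A to D. All day 4 mice were above all controls, the difference in means was 0.0929, and the exact two-sided permutation test gave p = 0.0286, the smallest possible. Across 5 equal bins of genes from the lowest to the highest GC content the median log2 fold change went from -0.07 to 0.08, and with the GC offset it stayed between -0.0112 and 0.00262. Protein-coding DE genes that were higher had a median GC content of 55.8%, those that were lower 46.3%, and all tested 49.9%. In the highest bin 32 genes were DE higher and 6 lower, and in the lowest bin 3 were higher and 22 lower, which became 11 and 10, and 2 and 7, with the GC offset. Among the 24 mice in a single scaling the day 4 slopes ran from 0.0733 to 0.115 and those of the controls from -0.0212 to 0.0287, whereas those of day 6 (-0.0263 to 0.0709), day 8 (-0.0254 to 0.102), day 13 (0.0199 to 0.0736) and rapamycin (-0.141 to 0.00125) are given for reference. The cause of the trend was not tested.

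**Figure D3:**
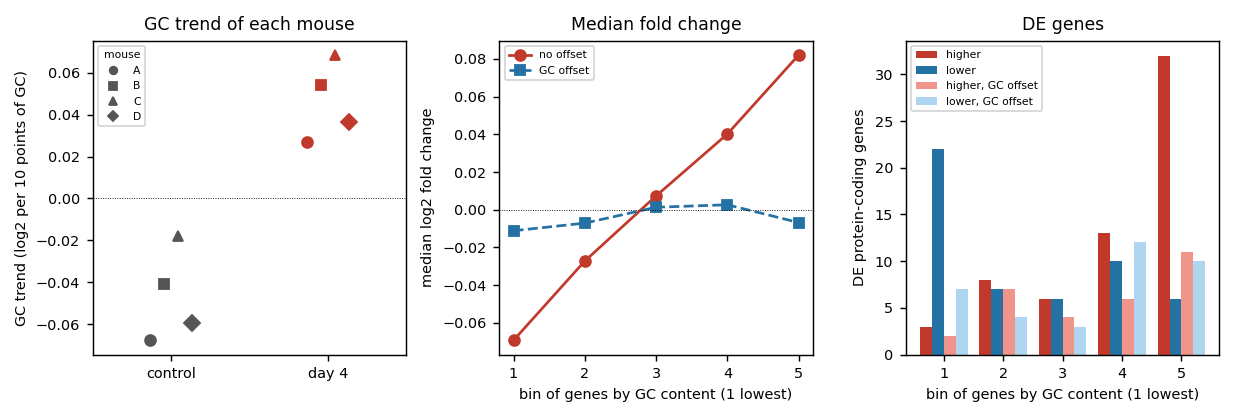
Left, GC trend of each mouse (log2 per 10 percentage points of GC, linear axis, marker shape for mouse A to D). Middle, median log2 fold change on day 4 in 5 equal bins of protein-coding genes by GC content without and with the GC offset. Right, number of DE protein-coding genes per bin, higher and lower, without and with the offset. The 4 day 4 slopes lie above 0 and the 4 control slopes below, and the difference between the bins is largely removed by the offset.

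The levels of the DE genes of day 4 in the later groups are given side by side, without a test, since all groups share the 4 controls and came from differing series of animals. The glucocorticoid-responsive genes were not at their day 4 level on day 6 and day 8. In a single scaling of all 24 mice, *Sgk1* stood at 78.3 ± 15.4 CPM in controls, 138 ± 12.3 on day 4, 82.7 ± 16.8 on day 6, 83.9 ± 6.54 on day 8, 152 ± 27.4 on day 13 and 179 ± 16.3 under rapamycin. *Plin4* had means of 17.4, 53.2, 18.1, 17.3, 46.7 and 69.6 CPM in the same order. *Hif3a*, which is not on the glucocorticoid list, had means of 4.90, 15.5, 4.42, 4.1, 9.61 and 22.3 CPM. The mean log2 level of the whole glucocorticoid list, relative to the mean of the controls, ran from 0.256 to 0.630 in the day 4 mice, from -0.105 to 0.211 on day 6, from -0.0437 to 0.140 on day 8, from 0.568 to 0.947 on day 13 and from 0.636 to 0.928 under rapamycin, against -0.179 to 0.0919 in controls. *Ackr2* was lowest on day 4, at 0.244 ± 0.097 CPM, and stood at 0.601 ± 0.197 on day 6, 1.29 ± 0.233 on day 8, 1.82 ± 0.639 on day 13 and 1.73 ± 0.32 under rapamycin, against 1.74 ± 0.495 in controls.

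Other genes went further at the later times. *Spag5* had means of 14.0 CPM in controls, 7.68 on day 4, 6.94 on day 6, 6.41 on day 8, 4.73 on day 13 and 13.0 under rapamycin, and *BC030499* of 14.6, 6.97, 5.79, 4.68, 2.85 and 13.6 CPM. *Stc2* had means of 2.7, 4.2, 6.13, 10.6, 15.9 and 3.11 CPM, and *Gpnmb* of 6.12, 13.2, 14.8, 44.4, 66.5 and 4.67 CPM, with an SD of 36.5 CPM on day 8. For these 4 genes the rapamycin group had a mean closer to the controls than to day 4, although rapamycin mice also differed in cohort from both. *Esr1* stood between 29.4 and 34.6 CPM on average in all 5 groups with Cre, and *Hbb-bs* between 18.6 and 24.6 CPM, against 3.16 and 34.7 CPM in the controls.

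**Figure D4:**
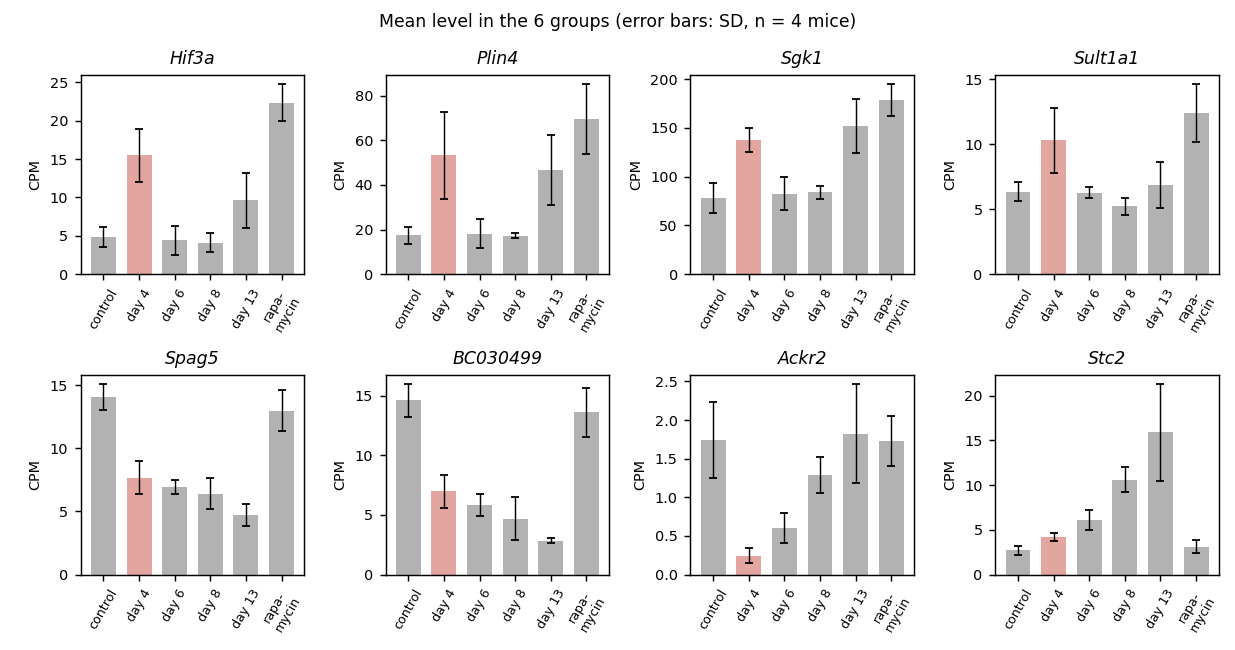
Mean CPM (bars from 0, linear axes) and SD (error bars, n = 4 mice) of 8 genes in the 6 groups, with day 4 in red. *Hif3a*, *Plin4*, *Sgk1* and *Sult1a1* are higher on day 4 than on day 6 and 8, *Spag5* and *BC030499* are lower from day 4 to day 13, *Ackr2* is lowest on day 4 and *Stc2* is highest on day 13.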

How the data were processed

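Total hippocampal RNA was depleted of rRNA and sequenced as stranded paired-end libraries. Per the submitters' processing notes the tools were cutadapt 1.16.5, STAR 2.7.2b and featureCounts 1.6.4, with build mm10 (GRCm38), and the authors deposited raw counts per GENCODE gene, 1 library per mouse. The strand setting and the handling of multiply aligned reads were not given in the sources used here. Gene names, positions and GC content came from GENCODE M21, which held 55144 of the 55385 identifiers. Groups and mouse letters came from the sample titles.

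The 8 mice were fitted with the quasi-likelihood test of edgeR 4.0.16 (R 4.3.3, filterByExpr, TMM, Benjamini-Hochberg over 25308 genes), and genes counted as DE below an adjusted p of 0.05 with a log2 fold change past 0.5 either way. These thresholds are those of the study, which used DESeq2. It reported fewer such genes on day 4, whereas DESeq2 here gave 184 on the same 8 mice and 70 on all 24 mice. The cause of the difference from the study's count was not tested. On simulated counts the edgeR fit was checked as follows. With 200 of these genes changed 2-fold, it recovered 90.0% and called 13 unchanged genes. With an added GC trend that was steeper than the difference of 0.0929 between the groups, it called 128 unchanged genes without and 7 with the GC offset. The offset was a spline of log2 CPM on GC content and length per mouse. Because the added trend was steeper, these counts do not measure the false calls in the mice. Replicates were separate mice, and no pair of libraries agreed within sampling noise (lowest chi-square per degree of freedom 8.56).

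The genes named were *Tsc1*, the 12 largest rises and falls among DE genes with a mean CPM of at least 1, no overlap, an adjusted p under 0.05 without any 1 mouse and the same call with the GC offset (42 genes met this), up to 4 DE members per list or 2 examples, and the transgene's neighbours. The lists held 1087 symbols, of which 1066 were tested. Members of lists named at an adjusted p alone, and genes so marked, were chosen after their values were seen. The comparison, the rule and the lists were chosen with earlier results of these data known. Alternatives were DESeq2 1.42.0, fits of all 24 mice, other scaling, filters, thresholds and controls, the GC offset, the mouse letter as a block, *Xist* as a covariate and each mouse left out in turn. Some genes are left unreported.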

Additional observations from a re-analysis of the deposited data

Results flagged for a closer look

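Within groups of 4 mice, 24 of 270 checks of the named genes found 1 mouse far from the other 3, where chance gives about 1 in 20. Flags on sex-linked genes followed the sex balance of the groups. *Xist* was at 969.6 CPM in day 4 mouse D, the Y-linked genes *Ddx3y*, *Eif2s3y*, *Kdm5d* and *Uty* were at 58.3, 61.7, 60.3 and 59.0 CPM in control A, and in day 4 mouse D they were at 0, 0, 0 and 0.0679 CPM.

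Among the genes of the report, *Sgk1* was highest in day 4 mouse C at 159 CPM, *Mir6236* highest in day 4 mouse A at 54.6 CPM and *Lum* highest in day 4 mouse A at 2.71 CPM. The choroid plexus genes *Ttr* and *Folr1* stood apart in control B, at 1538 and 11.6 CPM. Control A stood apart for *Slc17a7* at 756 CPM, *Srebf1* at 60.2 CPM and *mt-Nd1* at 1348 CPM. Control D stood apart for *Slc7a2* at 37.0 CPM, *Srebf2* at 126 CPM and *Pcp4* at 20.1 CPM, and control C for *Hspa1b* at 5.81 CPM. Day 4 mouse C stood apart for *Rpl3* at 275 CPM and *Mki67* at 11.5 CPM, and day 4 mouse D for *P2ry12* at 34.8 CPM.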

How the results depend on the processing

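No DE gene named, nor *Tsc1*, changed direction under any alternative run, whereas the number of DE genes moved. Against 172 DE genes (86 higher, 86 lower), edgeR on all 24 mice gave 29 (21 higher, 8 lower), DESeq2 on all 24 mice 70 (46 and 24), the GC offset 100 (43 and 57), *Xist* as a covariate 107 (67 and 40), the controls of the first series of animal numbers alone 81 (57 and 24) and those of the second series alone 124 (73 and 51). A log2 fold change over 1 gave 35 (19 and 16), and no fold-change minimum 1054 (660 and 394). DESeq2 on the same mice gave 184, no filter on low counts 226, the study's filter 170 and DESeq2 size factors 172. Leaving out each mouse in turn gave 83 to 211 DE genes, 48 to 107 higher and 28 to 107 lower. The lowest counts came without control D (83), day 4 B (84) and day 4 C (107). Without control B 46 genes were lower and without day 4 A 56. The difference in GC trend was 0.0792 over all genes, 0.0914 without the least expressed 10% of genes and 0.0856 to 0.103 without each mouse. The *Tsc1* log2 fold change was -0.41 to -0.46 throughout.

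Mice with the same letter in both groups share only a letter. The correlations of their deviations from the group means were 0.0216, 0.00982, 0.108 and 0.0208 for A to D, and 1 of the 4 letters matched its own best. With the letter as a replicate block 163 genes were DE (91 higher, 72 lower), and with the block and the GC offset together 100 (50 and 50). Of the 44 DE genes named by the rule, 10 lost their call with the GC offset, 14 with *Xist* as a covariate, 27 in edgeR on all 24 mice and 4 under the block. The calls lost in edgeR on all 24 mice included *Castor2*, *Stc2*, *Gpnmb*, *Syn1*, *Fosl2*, *Npas4* (adjusted p = 0.740) and *Arc* (adjusted p = 0.719). With the GC offset 8 of 60 list medians moved by more than the spread between mice, against none in DESeq2 on the same mice or edgeR on all 24. Genes with few counts, such as *Ackr2* on day 4, were measured with the least precision.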

Other observations

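Chromosome 7 held 29 DE genes of 2009 tested (1.44%, 16 higher and 13 lower), a share above those of the other autosomes, which ran up to 0.991% on chromosome 10. Of the 13 lower genes, 5 were noncoding neighbours on the plus strand between 135486029 and 136318513. They were *Gm36356* (log2 fold change -0.84, adjusted p = 0.0369 by edgeR), *6330420H09Rik* (-1.07, 0.0397), *Gm45440* (-1.12, 0.0185), *C030029H02Rik* (-0.53, 0.0218) and *Gm45426* (-0.77, 0.0162). Day 4 mice lay below all controls for the first 4 of these, and *Gm45426* lies within *C030029H02Rik*, so that the reads of this pair cannot be told apart. The region was chosen after its values were seen.

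Higher DE genes on chromosome 7 included *Itgad* and *Gm44850*, which overlap on opposite strands, with log2 fold changes of 1.45 and 1.90. *Itgad*, an integrin gene of myeloid cells, stood at 0.998 ± 0.302 CPM on day 4 against 0.367 ± 0.167 CPM in controls. This pair too was chosen after its values were seen.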
